A study of Mus musculus with 15 samples.

Results

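The IgG precipitates of an RNA immunoprecipitation sequencing (RIP-seq) study of the RNA-binding protein Arid5a were compared between IL-17 treatment and medium. All libraries labelled as IgG RIP were taken, 3 after IL-17 (replicates 2, 3 and 4) and 4 in medium (replicates 1 to 4), which is 7 of the 15 libraries of the mouse series; the other 8 are Arid5a RIP libraries. The cells were ST2, an established mouse stromal line derived from bone marrow. They were given IL-17 at 200 ng/mL or medium as the control for 3 h, fixed with 1% formaldehyde and lysed, and the lysate was precipitated with mouse IgG2b, an antibody with no intended target. RNA was freed with DNase I and proteinase K, extracted with acid phenol, and made into stranded libraries with the SMART-Seq Stranded kit. Both groups are the same unmodified line and differ by label only in IL-17. The study asked which transcripts Arid5a binds; within the IgG RIP, the comparison gives the change with IL-17 in RNA carried over without the Arid5a antibody. An unprecipitated input library is not analysed here, so how closely the IgG precipitate follows the transcript levels of the cells was not tested. The labels do not say that replicates came from separate cultures, so p-values may measure technical spread only.

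IL-17 binds a receptor made of IL-17RA and IL-17RC, which recruits the adaptor Act1 (encoded by Traf3ip2) and TRAF6 and so activates NF-κB, MAP kinases and C/EBP factors. In stromal cells and fibroblasts the pathway is known for the chemokines that attract neutrophils and monocytes, for the NF-κB cofactor IκBζ (Nfkbiz), and for the RNase Regnase-1 (Zc3h12a), which limits the response by degrading inflammatory mRNAs. IL-17 is a weak inducer of transcription on its own and is also known to prolong the life of chemokine mRNAs. RNA that comes down with a non-specific IgG is used in RIP-seq as the background against which the specific antibody is read.

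The 7 libraries held between 939139 counts (medium 2) and 4580018 counts (medium 1). Medium 2 also had the fewest genes with a count, 15326 against 20857 to 21528 in the other medium libraries, and IL-17 replicate 4 had 18187 against 20772 and 22384 in the other IL-17 libraries. Pearson correlations of log2 CPM between libraries of a group were 0.818 to 0.922 in medium and 0.860 to 0.919 with IL-17. Stromal markers made up 26294 to 29430 CPM (counts scaled to one common library total) of the totals in medium and 26335 to 27699 with IL-17, led by Col1a1. The summed immune markers made up 50.9 to 88.2 and 42.4 to 59.8 CPM, with S100a8 and Hbb-bs at 0 in all 7 libraries; epithelial and endothelial markers made up 86.3 to 174 and 120 to 142 CPM, and muscle, fat and nerve markers 291 to 393 and 384 to 395 CPM. Of the 14, 25 and 29 tested markers of these 3 lists, edgeR, DESeq2 and limma voom each called 0; at an unadjusted edgeR p below 0.05 there were 0 immune, 4 epithelial or endothelial (1 higher, 3 lower) and 3 muscle, fat or nerve markers (all higher), where over all genes tested 5.03% were higher and 6.12% lower at that p (11.1% in all).

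Of 17835 genes tested, 46 rose and 42 fell with IL-17 (edgeR quasi-likelihood test, Benjamini-Hochberg adjusted p below 0.05), together 0.493% of the genes tested, or 0.258% higher and 0.235% lower. Among the genes that rose were chemokines, NF-κB subunits, the C/EBP factor Cebpd, the mRNA decay factors Zc3h12a and Rc3h1, and the death receptor Fas. Among the genes that fell were the immediate early factors Egr1 and Fos, the growth factors Bmp4 and Kitl, and cell cycle genes including Tacc3, Cenpm, Rrm2 and Birc5. The median log2 fold was 1.22 over the 46 and fell by 0.92 over the 42, against 0.003 over all genes and −0.04 over the 5394 well-expressed genes (average log2 CPM of at least 5). The groups did not overlap in CPM for 45 of the 46 and for 35 of the 42. Over all genes tested, 4.27% lay wholly higher and 3.32% wholly lower with IL-17. The 46 and the 42 were picked by a test on these same values, so larger folds and separated groups are partly built in. The values over all genes are given as a description and are not further evidence for the calls.

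The counts of calls moved with single libraries. Without medium 1 there were 257 calls (85 higher and 172 lower), without medium 3 there were 47 (35 and 12), and without IL-17 replicates 2, 3 and 4 there were 43 (31 and 12), 55 (38 and 17) and 50 (30 and 20). With library totals in place of the TMM factors of the main analysis, 68 genes were higher and 39 lower, and with upper-quartile factors 63 and 42. In all 20 alternative settings 11 of the 46 higher genes were called, namely Ccl2, Ccl7, Cxcl1, Cxcl5, Fas, Nfkbiz, Zc3h12a, Sqstm1, Creb3l1, Pmepa1 and Zfp469. Of the 42 lower genes only Egr1 was called in all 20. With the 7 IgG libraries alone there were 16 calls, 11 higher and 5 lower. The 11 were those same higher genes, and 3 of the 42 lower genes were still called. Of the 88, DESeq2 did not call 11 and limma voom 46; the 10 called by neither were 4930455J16Rik, A630019I02Rik, C3, Gbp2, Gbp3, Olfr1156, Slpi, Vmn2r109, Gm32687 and Speer4c, and Zfp433 was also missed by DESeq2. Named after their values were seen, outside the rule for named genes, were Creb3l1, Pmepa1, Zfp469, Zfp433, 4930455J16Rik, A630019I02Rik, Plk4, Prdx1, Prdx2, Lgals1 and Gnb1 among the called genes, and Ptgs2, Nfkbie, Sdc4, Rela, Rel, Traf3, Fosb, Snord22 and Snord17 among those not called. Cxcl3, Saa3 and Mmp3, too thinly counted to test, are also named outside that rule.

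**Figure D1:**
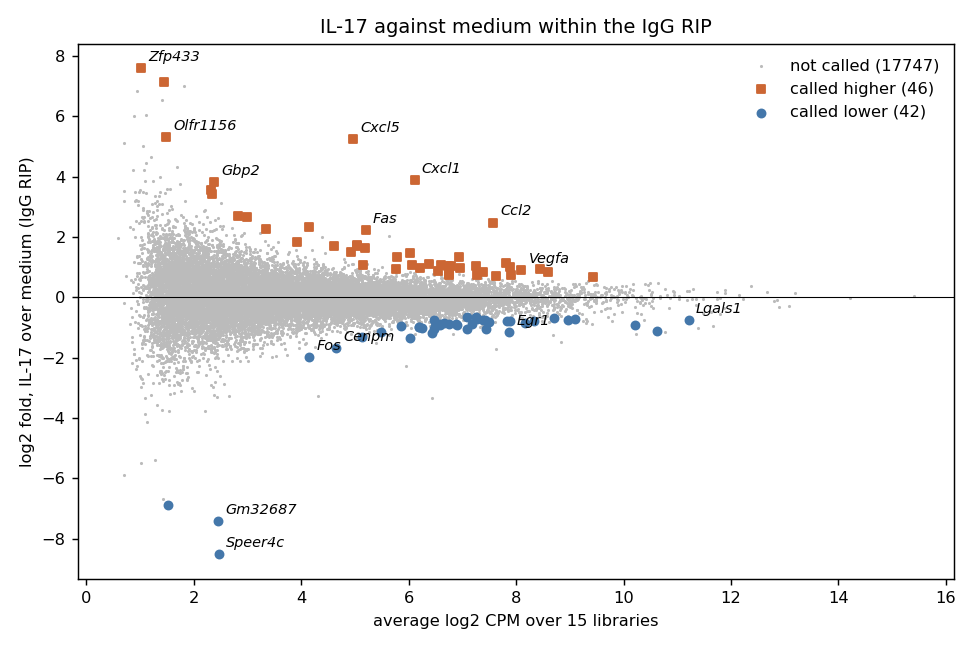
Log2 fold of IL-17 over medium within the IgG RIP (vertical axis) against average log2 CPM (horizontal axis), 1 point per tested gene, with the 46 higher and 42 lower genes coloured and the other 17747 in grey. Cxcl5, Cxcl1 and Ccl2 stand above the cloud of well-counted genes, and most called genes on the lower side lie at high average CPM.

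Promoter sequences are shown for genes that rose and hold a match to a motif of the factors named above, since NF-κB and C/EBP are the transcription factors of the IL-17 pathway. Of the 88 called genes, 63 have an entry in the RefSeq promoter table (build GRCm38.p6), 27 of the higher and 36 of the lower; Cxcl5, Ccl2, Ccl7 and Nfkbiz are without one. The 250 bases upstream of each start were searched on both strands for the NF-κB consensus and for the C/EBP core TTGCNNAA. The NF-κB consensus was found in 3 of 32 windows of the higher genes (Cxcl1, Sqstm1, Vegfa) and in 4 of 42 windows of the lower genes (Birc5, Fos, Gnb1, Prdx1), against 3.90% of all 32851 windows. TTGCNNAA was found in 5 of 32 windows of the higher genes (C3, Gbp3, Il1rl1, Olfr1156, Slpi) and in 0 of 42 of the lower, against 9.56% of all windows. Windows of 4 genes that rose follow, 5′ to 3′ in the direction of the gene, with the matched letters in capitals. They lie at chr5:90890995-90891244 (plus strand) for Cxcl1, chr11:50210821-50211070 (minus) for Sqstm1, chr17:46032378-46032627 (minus) for Vegfa and chr17:57228137-57228386 (minus) for C3.
Cxcl1: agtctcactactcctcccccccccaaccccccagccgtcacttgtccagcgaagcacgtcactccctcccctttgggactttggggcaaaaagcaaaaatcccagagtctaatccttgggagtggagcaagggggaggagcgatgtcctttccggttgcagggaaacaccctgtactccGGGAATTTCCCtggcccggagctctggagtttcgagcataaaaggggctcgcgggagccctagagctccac
Sqstm1: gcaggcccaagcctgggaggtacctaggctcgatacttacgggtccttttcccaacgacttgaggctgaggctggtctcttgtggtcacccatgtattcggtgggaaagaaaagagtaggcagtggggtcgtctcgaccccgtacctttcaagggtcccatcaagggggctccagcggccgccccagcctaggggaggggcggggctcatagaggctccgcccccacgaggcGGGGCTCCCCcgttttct
Vegfa: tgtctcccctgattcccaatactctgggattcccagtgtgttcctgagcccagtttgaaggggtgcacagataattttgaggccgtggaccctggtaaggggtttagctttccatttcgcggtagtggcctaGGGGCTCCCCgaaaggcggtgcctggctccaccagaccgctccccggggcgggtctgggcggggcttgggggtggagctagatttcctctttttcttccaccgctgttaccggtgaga
C3: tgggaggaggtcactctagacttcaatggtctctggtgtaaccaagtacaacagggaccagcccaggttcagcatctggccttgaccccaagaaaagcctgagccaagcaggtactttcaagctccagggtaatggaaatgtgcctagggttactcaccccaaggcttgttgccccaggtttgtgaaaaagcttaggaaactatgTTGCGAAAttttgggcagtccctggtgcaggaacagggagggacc
The capitals are NF-κB matches in Cxcl1 (bases −71 to −61 from the start, 2 overlapping matches), Sqstm1 (−18 to −9) and Vegfa (−118 to −109), and the C/EBP match in C3 (−45 to −38). A match describes letters only, and no binding was measured.

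The neutrophil chemokine Cxcl1 (chromosome 5, 90891245 to 90893121) stood at 12.6, 6.74, 6.50 and 9.93 CPM in medium libraries 1 to 4 and at 135, 87.2 and 203 CPM in IL-17 libraries 2 to 4, where CPM of single genes are on TMM-scaled library sizes. Every IL-17 library was above every medium library, and the lowest rested on 249 counts. The rise was 14.8-fold (log2 fold 3.89 ± 0.28 SE, edgeR adjusted p = 1.44e-11).

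Its neighbour Cxcl5 (chromosome 5, 90759298 to 90761625), a ligand of the same receptor, was nearly silent in medium at 2.21, 1.12, 0.722 and 0.320 CPM, which are 10, 1, 2 and 1 counts. With IL-17 it stood at 26.1, 55.7 and 59.8 CPM (122, 159 and 125 counts), and the groups were far apart. The log2 fold was 5.24 ± 0.41 (edgeR adjusted p = 3.39e-11); the medium level is thinly counted, which limits the precision of the fold.

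The monocyte chemokines Ccl2 and Ccl7, ligands of CCR2 that lie next to each other on chromosome 11, were clearly present before treatment. Ccl2 stood at 50.5, 70.8, 76.2 and 52.8 CPM in medium and at 262, 299 and 468 with IL-17, a log2 fold of 2.47 ± 0.19 (edgeR adjusted p = 1.44e-11). Ccl7 stood at 39.1, 83.1, 71.9 and 68.2 CPM in medium and at 144, 168 and 167 with IL-17, a log2 fold of 1.32 ± 0.19 (adjusted p = 9.55e-05). All IL-17 libraries lay above all medium libraries for both, and the fold of Ccl2 was the larger.

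Of the 24 genes listed as IL-17-inducible in stromal cells, 15 could be tested and 7 rose, namely Cxcl5, Cxcl1, Ccl2, Zc3h12a, Cebpd, Nfkbiz and Ccl7. Over all genes tested 0.258% were called higher. From this list 0 fell, and 14 of the 15 had a log2 fold above 0 (median 1.17). Ptgs2, the inducible cyclooxygenase, went from 47.8 ± 27.7 CPM (SD, n = 4) to 114 ± 9.78 (n = 3) without passing the test (log2 fold 1.17 ± 0.32, edgeR adjusted p = 0.114). The remaining 9 were too thinly counted to test. Among them Il6, a cytokine known to be stabilised by Arid5a, had at most 6 counts in any medium library and 5 in any IL-17 library, and Lcn2, Cxcl2, Cxcl3, Ccl20, Csf2, Csf3, Saa3 and Mmp3 were likewise at 10 counts or fewer in every IgG library. A small change in these was not detectable at this depth. Of the wider list of cytokines and chemokines, 27 of 50 were tested, with 4 higher and 1 lower (Kitl). Over all genes tested 0.258% were called higher and 0.235% lower. Cxcl12, the niche chemokine, went from 2060.2 ± 108 to 1615 ± 182 CPM and Csf1 from 339 ± 46.8 to 419 ± 20.4 CPM, with edgeR adjusted p of 0.347 and 0.473, while Lif at 5.68 ± 4.02 and 10.4 ± 1.79 CPM also missed it (adjusted p = 0.677).

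**Figure D2:**
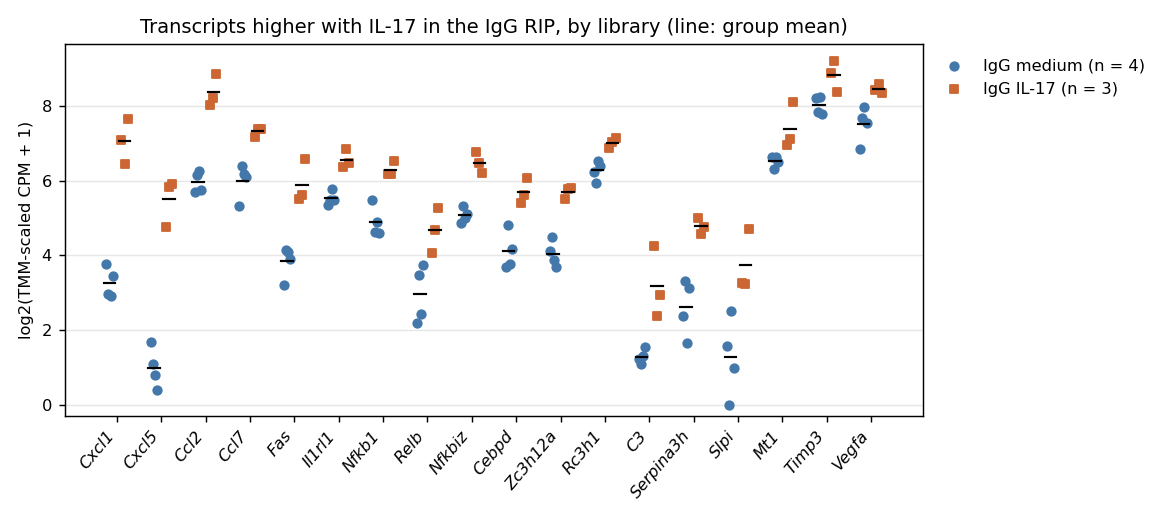
Level as log2(CPM + 1) of 18 genes that rose with IL-17 in the IgG RIP, 1 dot per library (4 medium, 3 IL-17) and a line at each group's mean of the log2 values. Cxcl5 runs from 0.320 to 2.21 CPM in medium to 26.1 to 59.8 with IL-17, while Rc3h1 and Timp3 shift by 1.65-fold and 1.77-fold.

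Among genes of NF-κB and its inhibitors, Nfkb1, Relb and Nfkbiz rose. Nfkb1, which encodes p105/p50, stood at 44.1, 23.6, 28.9 and 23.4 CPM in medium and 71.5, 71.8 and 92.4 with IL-17 (log2 fold 1.34 ± 0.22, edgeR adjusted p = 6.32e-04). Relb, the partner of p52 in the alternative pathway, stood at 3.53, 10.1, 4.33 and 12.5 against 15.6, 24.9 and 37.8 CPM (log2 fold 1.82 ± 0.43, adjusted p = 0.0366). Nfkbiz, which encodes the nuclear cofactor IκBζ, stood at 28.0, 39.3, 31.1 and 33.6 against 108, 87.6 and 73.7 CPM (log2 fold 1.48 ± 0.21, adjusted p = 9.55e-05). In each the groups did not overlap, though the gap was narrow for Relb, whose call was lost without any one of medium 1, medium 3, IL-17 replicate 3 or IL-17 replicate 4.

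Those 3 were the called members among 24 tested genes of NF-κB and its feedback inhibitors, against 0.258% called higher over all genes, and 0 fell. At an unadjusted p below 0.05 there were 8, all higher, against 5.03% higher over all genes. The list's median log2 fold was 0.54. The inhibitor Nfkbia, a textbook NF-κB target, stood at 33.5, 55.0, 48.0 and 28.2 CPM in medium and at 62.5, 53.6 and 86.1 with IL-17, so that the groups overlapped (log2 fold 0.75 ± 0.24, edgeR adjusted p = 0.173). The deubiquitinase Tnfaip3 (A20) overlapped too, at 56.1 ± 21.8 and 79.1 ± 12.1 CPM (adjusted p = 0.328). Nfkbie (5.69 ± 1.06 and 17.01 ± 1.51 CPM, adjusted p = 0.0963) and the syndecan Sdc4 (199 ± 37.3 and 313 ± 0.886 CPM, adjusted p = 0.0671) did not overlap and still missed the threshold. The subunits Rela and Rel had log2 folds of 0.21 and 0.04.

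Cebpd, a C/EBP factor induced early in inflammation, stood at 11.9, 27.0, 12.6 and 16.97 CPM in medium and 41.3, 48.3 and 67.0 with IL-17, with no overlap (log2 fold 1.70 ± 0.28, edgeR adjusted p = 5.89e-04). Its relative Cebpb, at 67.1 ± 19.9 and 81.6 ± 17.2 CPM, overlapped (log2 fold 0.25 ± 0.21, adjusted p = 0.725). Within 42 tested C/EBP, AP-1 and immediate early genes, Cebpd was the 1 that rose, 2 fell (Egr1 and Fos), and the median was −0.05. Over all genes tested 0.258% were called higher and 0.235% lower. At an unadjusted edgeR p below 0.05, 6 of the 42 were higher and 6 lower, against 5.03% and 6.12% over all genes.

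A pair of mRNA decay regulators rose. Zc3h12a, encoding the RNase Regnase-1, stood at 16.3, 21.3, 13.7 and 11.8 CPM in medium and 45.0, 53.6 and 55.5 with IL-17 (log2 fold 1.75 ± 0.27, edgeR adjusted p = 3.37e-04). Rc3h1, encoding Roquin-1, which represses an overlapping set of mRNAs, stood at 74.4, 60.6, 92.1 and 82.9 against 118, 131 and 141 CPM (log2 fold 0.72 ± 0.17, adjusted p = 0.031). Both were higher in all 3 IL-17 libraries than in any medium library, and the Rc3h1 call was lost without medium 2 or without any 1 IL-17 library. Of 34 tested regulators of mRNA decay and stability 2 rose and 0 fell, with a median of 0.06. Over all genes tested 0.258% were called higher and 0.235% lower. Of the 34, 2 lay wholly higher and 3 wholly lower with IL-17, against 4.27% and 3.32% over all genes. Arid5a itself stood at 20.5, 11.2, 21.3 and 9.61 CPM in medium and 20.3, 20.7 and 25.4 with IL-17, overlapping groups (log2 fold 0.45 ± 0.39, adjusted p = 0.731).

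Among receptors, Fas, which carries death signals and is a known NF-κB target, stood at 8.17, 16.8, 15.9 and 14.1 CPM in medium and 44.3, 48.0 and 95.2 with IL-17 (log2 fold 2.23 ± 0.29, edgeR adjusted p = 1.74e-05). Il1rl1, the receptor of IL-33, stood at 39.7, 43.8, 54.2 and 44.2 against 81.8, 115 and 89.0 CPM (log2 fold 1.06 ± 0.22, adjusted p = 0.0163). Neither overlapped between groups, and the Il1rl1 call was lost without IL-17 replicate 3. Fas and Il1rl1 were the 2 of 36 tested cytokine receptor, STAT and SOCS genes that were called (median 0.14). Over all genes tested 0.258% were called higher. Stat3 was at 50.7 ± 6.75 and 61.3 ± 14.2 CPM (adjusted p = 0.721). Of 8 transcripts reported to bind Arid5a, 6 were tested and 3 rose (Cxcl1, Cxcl5 and Nfkbiz), against that same 0.258% over all genes. These 3 are also on the list of IL-17-inducible genes, so they are the same calls as above. Stat3, Cebpb and Tbx21, the last at 3.27 ± 2.29 and 9.42 ± 1.98 CPM (adjusted p = 0.39), did not pass. Il6 and Tnfrsf4 were too thinly counted to test.

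The receptor pathway of IL-17 itself held no call in edgeR. Of 37 tested genes, 3 had an unadjusted p below 0.05 on the higher side and 2 on the lower, against 5.03% and 6.12% over all genes. DESeq2 called 1 and limma voom called 0, where of all 17835 genes tested they called 320 and 54. The median of the 37 was −0.04. Il17ra stood at 38.0, 22.5, 29.3 and 30.7 CPM in medium and 48.8, 44.5 and 63.2 with IL-17, without overlap (log2 fold 0.75 ± 0.25, edgeR adjusted p = 0.186). Il17rc, the other receptor chain, was at 13.6 ± 10.8 and 13.4 ± 7.18 CPM, and Traf3ip2, which encodes Act1, at 20.5 ± 11.2 and 33.0 ± 12.7 CPM (adjusted p = 0.971 and 0.559). Traf3, an inhibitor of the receptor complex, went from 45.9 ± 4.69 to 78.4 ± 24.6 CPM (log2 fold 0.76 ± 0.20, adjusted p = 0.0861).

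Serpina3h, C3 and Slpi rose from low levels. The serpin Serpina3h, annotated as a transcribed pseudogene with close paralogs that can share reads, stood at 4.19, 8.98, 2.17 and 7.69 CPM in medium and 30.8, 22.8 and 26.3 with IL-17 (log2 fold 2.32 ± 0.39, edgeR adjusted p = 9.82e-04). Complement C3 stood at 1.32, 1.12, 1.44 and 1.92 against 17.99, 4.20 and 6.70 CPM, with 1 to 6 counts in each medium library (log2 fold 2.68 ± 0.65, adjusted p = 0.0415). The protease inhibitor Slpi stood at 1.99, 0, 4.69 and 0.961 against 8.57, 8.41 and 25.4 CPM (log2 fold 2.68 ± 0.64, adjusted p = 0.0391). The groups did not overlap in any of these, which was a condition for naming genes by their fold. The C3 call was lost without medium 1, medium 3, medium 4 or IL-17 replicate 2. That of Slpi was lost without medium 1, medium 4, IL-17 replicate 2 or IL-17 replicate 4. Of 16 tested antimicrobial, acute-phase and complement genes, C3 and the metallothionein Mt1 rose and 0 fell (median 0.31), against 0.258% called higher over all genes.

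Guanylate-binding proteins, GTPases known as interferon-inducible, gave 2 calls. Gbp2 stood at 0.221, 0, 1.44 and 0.961 CPM in medium and 7.28, 5.25 and 20.1 with IL-17, the latter from 34, 15 and 42 counts (log2 fold 3.82 ± 0.78, edgeR adjusted p = 0.0109). Gbp3 stood at 1.55, 0, 1.44 and 0 against 19.5, 3.15 and 10.05 CPM (log2 fold 3.57 ± 0.82, adjusted p = 0.031). The folds rest on 0 to 7 counts per medium library. The Gbp2 call was lost without IL-17 replicate 4, and the Gbp3 call without medium 3, medium 4 or IL-17 replicate 2. In the Arid5a RIP Gbp2 was at 3.81 and 4.76 CPM in medium and IL-17 libraries and Gbp3 at 3.22 and 3.84 (edgeR interaction, adjusted p = 0.0704 and 0.109). Over the 34 tested interferon-response genes these 2 were the only ones called by edgeR, against 0.258% called higher over all genes. At an unadjusted p below 0.05, 7 were higher and 2 lower, against 5.03% and 6.12% over all genes, and the median was 0.37.

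Well-counted genes of other kinds rose too. Sqstm1, encoding the autophagy receptor p62, stood at 163, 174, 146 and 118 CPM in medium and 316, 229 and 357 with IL-17 (log2 fold 1.01 ± 0.16, edgeR adjusted p = 5.78e-04). Vegfa, the angiogenic growth factor, stood at 115, 203, 251 and 188 against 347, 386 and 327 CPM (log2 fold 0.91 ± 0.18, adjusted p = 0.00735). Timp3, an inhibitor of matrix proteases, stood at 300.0, 228, 302 and 222 against 478, 592 and 333 CPM (log2 fold 0.83 ± 0.17, adjusted p = 0.0111). The IL-17 libraries were above the medium libraries for all 3, by the least for Timp3, whose lowest IL-17 value was 333 and highest medium value 302 CPM and whose call was lost without IL-17 replicate 2 or 3.

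Mt1 stood at 98.7, 78.6, 99.0 and 89.3 CPM in medium and 124, 139 and 278 with IL-17 (log2 fold 0.96 ± 0.21, edgeR adjusted p = 0.0178), and without IL-17 replicate 4, the highest, the call was lost. Cd44, the hyaluronan receptor, went from 185 ± 46.4 to 312 ± 67.8 CPM (log2 fold 0.74 ± 0.17, adjusted p = 0.0364), a call lost without medium 2, medium 4, IL-17 replicate 2 or IL-17 replicate 4. Steadier were Creb3l1, a transcription factor of the endoplasmic reticulum, at 105 ± 14.2 and 214 ± 23.5 CPM (log2 fold 1.02 ± 0.16), Pmepa1, an inhibitor of TGF-β signalling, at 136 ± 27.9 and 300.1 ± 49.6 CPM (log2 fold 1.13 ± 0.18), and Zfp469, at 241 ± 58.7 and 465 ± 43.2 CPM (log2 fold 0.93 ± 0.16). Their edgeR adjusted p were 5.56e-04, 4.41e-04 and 0.00135. Ccdc112, a coiled-coil protein, went from 12.5 ± 3.36 to 41.9 ± 21.4 CPM (log2 fold 1.68 ± 0.33, adjusted p = 0.00728), with the call lost without IL-17 replicate 4.

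A few calls were on genes at or near 0 in the other group. With IL-17 the receptor genes Vmn2r109 and Olfr1156, known from sensory neurons of the nose, stood at 9.52 ± 2.26 and 4.73 ± 0.209 CPM, against 0.717 ± 0.671 and 0.0552 ± 0.110 in medium. They were the 2 called of 708 tested olfactory and vomeronasal receptor genes, and DESeq2 and limma voom called 0 of them. Over all genes tested 0.258% were called higher. At an unadjusted edgeR p below 0.05 there were 73, 10.3% of the 708 against 11.1% over all genes tested. By direction 58 were higher and 15 lower, where over all genes 5.03% were higher and 6.12% lower. The median log2 fold of the 708 was 0.33, with 441 above 0. Wholly higher were 40 and wholly lower 9, against 4.27% and 3.32% over all genes. Vmn2r109 was lost without medium 4 or IL-17 replicate 4, and Olfr1156 was called in only 2 of the 7 analyses that left out 1 IgG library. The receptor list as a whole made up 2164, 1929, 1835 and 3214 CPM of the totals in medium and 3528, 3379 and 2279 with IL-17, overlapping groups with a difference of 776 CPM (exact permutation test, two-sided, p = 0.171, adjusted over 6 library measures p = 0.343, with 0.0286 the smallest p that 35 splits allow). The protocadherin Pcdhga9 (3.04 ± 2.94 and 17.4 ± 3.94 CPM, edgeR adjusted p = 0.0398) shares exons with its cluster neighbours, so its counts are uncertain; it was the 1 call among 56 tested clustered protocadherins and was called in 2 of those 7 analyses. With 0 counts in all medium libraries, Zfp433 was at least 4.56-fold and 4930455J16Rik at least 3.39-fold higher with IL-17, taking 3 counts per library as the floor. Both calls were lost without medium 3, and that of Zfp433 also without medium 4 or IL-17 replicate 2. Zfp433 had 43, 18 and 11 counts with IL-17, and 0.207 and 0 CPM in medium and IL-17 libraries of the Arid5a RIP. It lies near Gm32687 on chromosome 10, which went the opposite way and is described below. Whether the 2 share reads was not tested. The long noncoding Gm44505 (41.6 ± 17.7 and 94.5 ± 2.95 CPM) overlaps Cntf, Zfp91 and Lpxn, and its call was lost without medium 3. Of the 88 called genes, 40 overlap another gene model, and since the strand setting of the counting is not given, reads of overlapping genes cannot be told apart.

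Among the genes that fell, Egr1, a zinc-finger immediate early factor, stood at 293, 366, 393 and 339 CPM in medium and 131, 143 and 192 with IL-17 (log2 fold −1.16 ± 0.18, edgeR adjusted p = 4.41e-04). All 3 IL-17 libraries were below every medium library. Fos, the AP-1 subunit, stood at 37.5, 7.86, 31.8 and 13.8 against 8.57, 7.005 and 1.44 CPM (log2 fold −1.98 ± 0.47, adjusted p = 0.0387). The Fos groups overlapped, with medium 2 (7 counts) below IL-17 replicate 2, and the call was lost without medium 1, medium 3 or any 1 IL-17 library, and under each of the other 3 scalings (adjusted p of 0.0553 to 0.0578). Fosb had the same direction without passing the test, at 26.9 ± 10.3 and 8.14 ± 7.23 CPM (adjusted p = 0.0861).

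Bmp4, Kitl and Adamts5 fell as well. Bmp4, a bone morphogenetic protein, stood at 139, 117, 87.4 and 164 CPM in medium and 55.2, 56.4 and 57.4 with IL-17 (log2 fold −1.18 ± 0.20, edgeR adjusted p = 8.78e-04). Kitl, the stem cell factor of the marrow niche, stood at 138, 106, 178 and 170.4 against 75.4, 71.4 and 95.7 CPM (log2 fold −0.89 ± 0.19, adjusted p = 0.0173). Adamts5, an aggrecanase, stood at 156, 185, 149 and 173 against 82.9, 80.2 and 99.1 CPM (log2 fold −0.92 ± 0.17, adjusted p = 0.00263). None of the 3 overlapped between groups. Bmp4 and Adamts5 were called whichever IgG library was left out, and Kitl was lost without medium 3, medium 4, IL-17 replicate 2 or IL-17 replicate 3. None of the 3 was called with the 7 IgG libraries alone. Of 43 tested growth factors and morphogens Vegfa rose and Bmp4 fell (median 0.15), and of 26 matrix proteases and inhibitors Timp3 rose and Adamts5 fell (median 0.01). Over all genes tested 0.258% were called higher and 0.235% lower.

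Cell cycle genes gave 4 calls, all lower, among 45 tested, against 0.235% over all genes. At an unadjusted p below 0.05 there were 12, also all lower, against 6.12% lower over all genes. Of the 45, 10 had a log2 fold above 0, and the median was −0.15. Tacc3, a spindle protein, stood at 133, 304, 236 and 204 CPM in medium and 102, 113 and 98.1 with IL-17 (log2 fold −1.05 ± 0.20, edgeR adjusted p = 0.00406). Cenpm, a centromere protein, stood at 17.4, 58.4, 50.9 and 16.97 against 12.6, 9.46 and 9.57 CPM (log2 fold −1.68 ± 0.38, adjusted p = 0.0263). Rrm2, a subunit of ribonucleotide reductase, stood at 239, 376, 443 and 284 against 203, 195 and 185 CPM (log2 fold −0.78 ± 0.18, adjusted p = 0.0353).

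In all 3 the medium libraries were the spread-out group, and medium 1 lay closest to the IL-17 libraries for Tacc3 and Rrm2. Birc5 (survivin) overlapped, at 147, 245, 259.7 and 225 against 119.7, 151 and 120.1 CPM (log2 fold −0.75 ± 0.18, edgeR adjusted p = 0.0375). Tacc3 was called whichever IgG library was left out, but not with the 7 IgG libraries alone. Without medium 2, medium 3 or any 1 IL-17 library it was the 1 cell cycle call left, while without medium 1 there were 6. Plk4, the kinase of centriole duplication, is not on the list of cell cycle genes counted here. It had overlapping groups (167 ± 62.7 and 90.4 ± 12.2 CPM, log2 fold −0.90 ± 0.21, edgeR adjusted p = 0.031). It was called in 2 of the 7 analyses that left out 1 IgG library and in 10 of all 20 alternative settings.

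**Figure D3:**
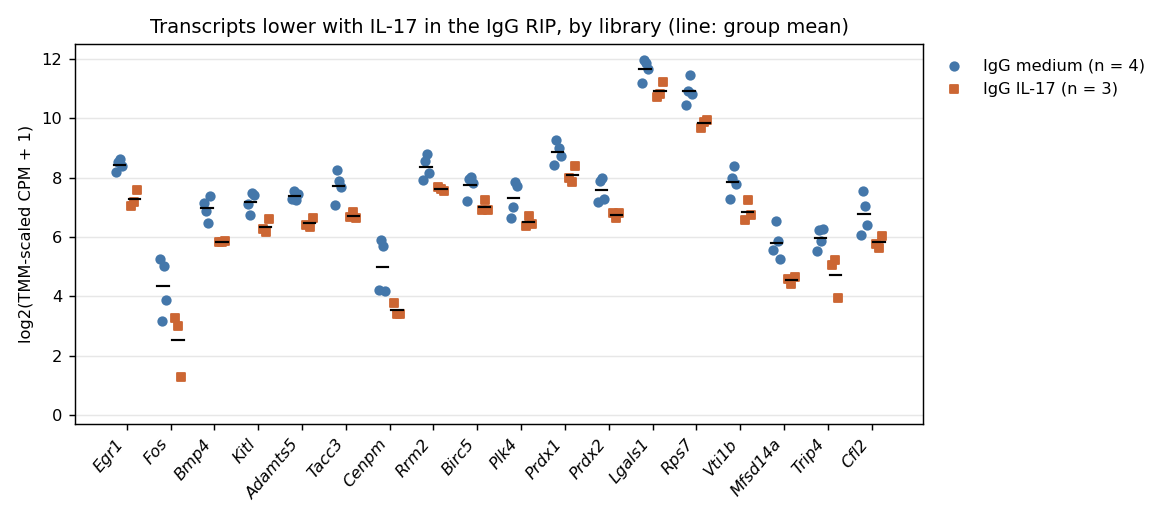
Level as log2(CPM + 1) of 18 genes that fell with IL-17 in the IgG RIP, 1 dot per library (4 medium, 3 IL-17) and a line at each group's mean of the log2 values. The medium dots are spread more widely than the IL-17 dots for genes such as Cenpm and Tacc3, and Fos, Birc5, Plk4 and Lgals1 overlap between groups.

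Other genes that fell were of varied function. Rps7, a ribosomal protein whose processed pseudogenes can share reads, went from 1983 ± 597 to 913 ± 87.4 CPM (log2 fold −1.12 ± 0.23, edgeR adjusted p = 0.027), and was not called under any of the other 3 scalings. It was the 1 call among 86 tested ribosomal protein mRNAs (median 0.02), against 0.235% called lower over all genes. Of these, 19 had an unadjusted p below 0.05 on the higher side and 9 on the lower, against 5.03% and 6.12% over all genes. Lgals1, a secreted lectin, went from 3335 ± 756 to 1969 ± 381 CPM, and the peroxiredoxins Prdx1 and Prdx2, which remove peroxides, from 472 ± 117 to 272 ± 54.1 and from 198 ± 55.3 to 107 ± 7.27 CPM. The SNARE Vti1b fell from 241 ± 75.0 to 116 ± 29.8 CPM, the transporter Mfsd14a from 57.8 ± 23.7 to 22.5 ± 1.90, the coactivator Trip4 from 62.8 ± 14.7 to 27.4 ± 11.5, and the actin-severing cofilin Cfl2 from 117 ± 54.3 to 55.7 ± 8.13.

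The last 7 genes had log2 folds between −0.76 and −1.32 and edgeR adjusted p of 0.0111 to 0.0366, with overlapping groups for Lgals1. Rps7 and these 7 were each called in only 2 to 5 of the 7 analyses that left out 1 IgG library. Speer4c and Gm32687 had 0 counts in all 3 IL-17 libraries and 13.8 ± 7.25 and 6.10 ± 2.92 CPM in medium, at least 13.3-fold and 5.85-fold higher in medium by the same floor of 3 counts per library. Speer4c belongs to a multigene family, and its counts are uncertain. The Gm32687 call was lost without IL-17 replicate 2. Gm32687 had 21, 4, 29 and 15 counts in medium libraries 1 to 4, where nearby Zfp433 had 0, and Zfp433 had counts only in the IL-17 libraries of the IgG RIP. Whether reads were shared between them was not tested, so the counts of both are uncertain.

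The genes that fell had a median estimated length of 2042 bases (41 with an estimate) and those that rose 2601 (45 with an estimate). It was 3236 over the 5394 well-expressed genes, a narrower set that holds 37 of the 42 and 32 of the 46. Over those 5394 genes, sorted by length into 5 equal bins, the median log2 fold went from −0.13 in the shortest to −0.07, −0.04, −0.01 and 0.04 in the longest (Spearman 0.18 across genes, which are not independent replicates). The ratio of counts on long to counts on short genes was 1.17 ± 0.17 in medium and 1.34 ± 0.09 with IL-17 (exact permutation test, two-sided, n = 4 and 3, p = 0.171, adjusted p = 0.343). The part of length in the calls was not tested.

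**Figure D4:**
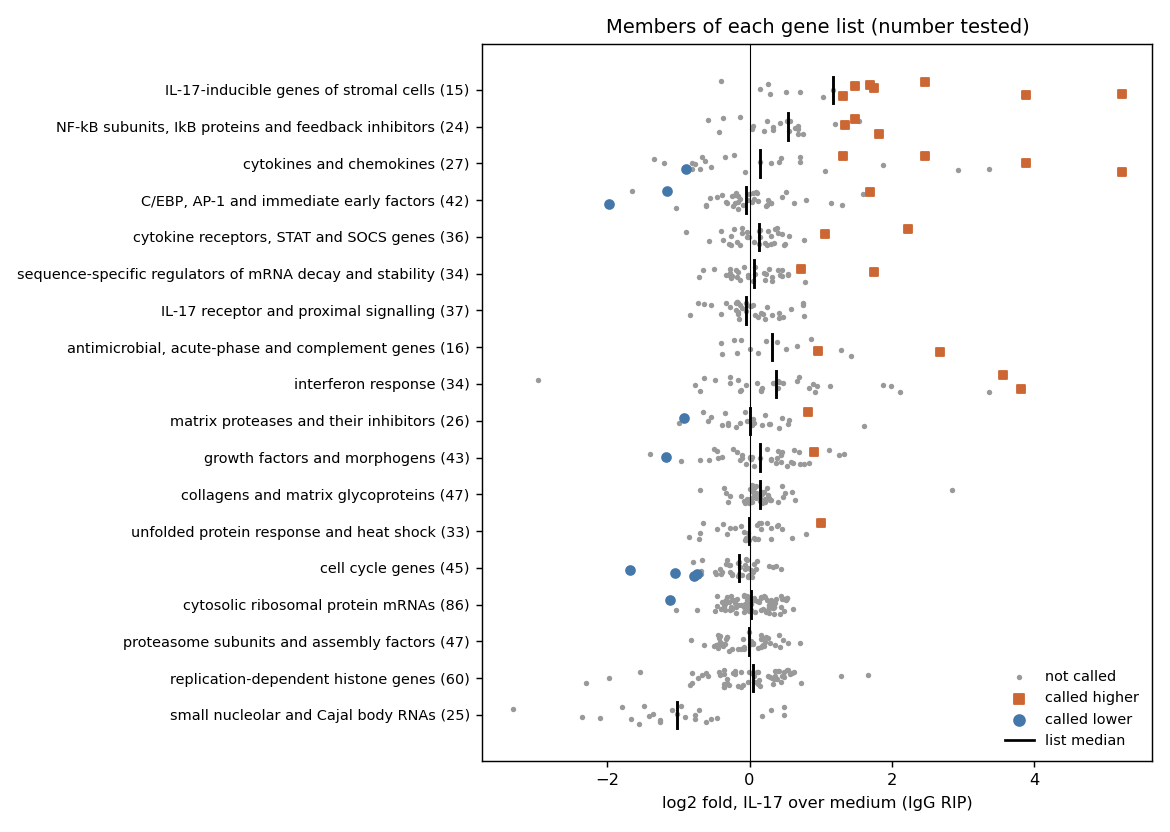
Log2 folds of IL-17 over medium in the IgG RIP for the tested genes of 18 lists, 1 dot per gene with the called genes coloured and a line at each list's median. The IL-17-inducible list has its median at 1.17 and small nucleolar RNAs have theirs at −1.02, while ribosomal proteins, proteasome and collagens lie near 0.

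Small nucleolar and Cajal body RNAs, guides of rRNA and snRNA modification, had the lowest list median at −1.02 over 25 tested of 119 (range over the alternatives −1.25 to −0.27). edgeR called 0 of the 25, 10 had an unadjusted p below 0.05, all lower, 7 did not overlap between groups, DESeq2 called 2 lower and limma voom 1. Over all genes tested, 6.12% were lower at that p in edgeR and 3.32% lay wholly lower. Of the 17835 genes tested, DESeq2 called 205 lower and limma voom 26. Together they made up 3002, 4394, 4663 and 2596 CPM of the totals in medium and 2470, 1547 and 1904 with IL-17, so that the IL-17 libraries lay below all medium libraries (3664 ± 1018 and 1974 ± 465; exact permutation test, two-sided, p = 0.0571, adjusted p = 0.343). Snord22 was at 942 ± 465 and 337 ± 76.3 CPM (edgeR adjusted p = 0.248) and Snord17 at 117 ± 8.10 and 71.1 ± 9.87 (adjusted p = 0.19). These RNAs are short, and how the library kit recovers them from each precipitate was not tested.

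The broad classes of cellular mRNA gave few calls or 0 in edgeR. Over all genes tested 5.03% were higher and 6.12% lower at an unadjusted edgeR p below 0.05. Of the 17835 genes tested edgeR called 0.258% higher and 0.235% lower, DESeq2 called 320 and limma voom 54. Among 47 tested collagens and matrix glycoproteins 0 were called (5 and 2 at an unadjusted p below 0.05 higher and lower; 1 by DESeq2, 1 by limma voom; median 0.14). For 47 proteasome genes it was 0 (3 and 7; 2 by DESeq2, 0 by voom; median −0.004), and for 60 histone genes 0 (5 and 6; 5 by DESeq2, 3 by voom; median 0.05). For 27 housekeeping mRNAs it was 0 (2 and 6; 1 and 0; median −0.08), and for 25 nuclear and other noncoding RNAs 0 (2 and 4; 1 and 1; median −0.09). Of 33 unfolded protein and heat shock genes Sqstm1 rose and 0 fell, with a median of −0.01, and of 13 prostaglandin and hyaluronan genes 0 were called (1 and 0; 0 by DESeq2, 1 by voom; median 0.29). Gapdh stood at 738 ± 84.8 and 893 ± 141 CPM, Actb at 7178 ± 406 and 6746 ± 166 and Malat1 at 19059 ± 2555 and 18543 ± 1322, with edgeR adjusted p of 0.462, 0.859 and 0.949. In these bulk lysates, fewer cells of a type and less RNA per cell cannot be told apart.

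The same treatment was compared with the Arid5a RIP, whose 4 medium and 4 IL-17 libraries are separate from the IgG libraries. There 863 genes were higher (4.84%) and 145 lower (0.813%) by the same edgeR test, and 202 and 119, 156 and 145, or 115 and 206 with upper-quartile factors, library totals or TMM factors from well-expressed genes. Arid5a RIP IL-17 replicate 4 stood apart from its group, with 4236 CPM on olfactory and vomeronasal receptor genes against 1305 to 1615 and 2072 on small nucleolar RNAs against 631 to 1251. Without it there were 1498 higher and 759 lower, and without any 1 of the other 7 Arid5a RIP libraries 296 to 546 higher and 12 to 54 lower. Of the 46 genes that rose in the IgG RIP, 34 also rose in the Arid5a RIP, 73.9% of the IgG list and 3.94% of the Arid5a list; 41 had the same sign, and their median log2 fold there was 1.04. Of the 42 that fell in the IgG RIP, 4 also fell in the Arid5a RIP (9.52% and 2.76%), 26 had the opposite sign, and their median was 0.08, where the median over all well-expressed genes was 0.30. With 1 Arid5a RIP library left out, 29 to 35 of the 46 and 0 to 4 of the 42 were also called there. Over the other alternatives the share of higher genes also called there ran from 23.1% to 96.4%, and that of lower genes from 0% to 26.9%. Across the well-expressed genes the log2 folds of both precipitates had a Pearson correlation of 0.26, and across all genes of −0.02, given as a description.

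**Figure D5:**
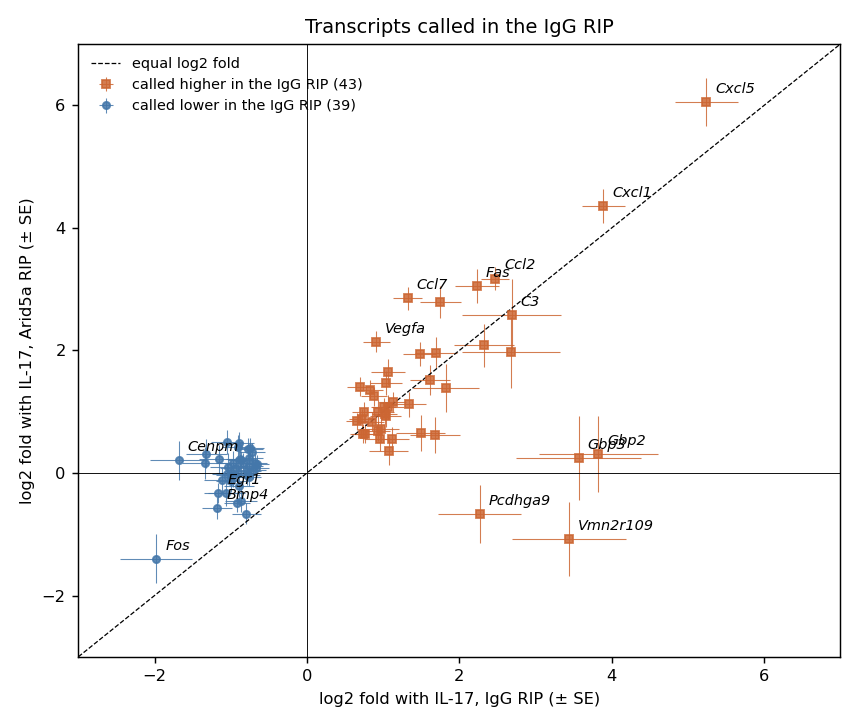
Log2 fold with IL-17 in the Arid5a RIP (vertical axis) against that in the IgG RIP (horizontal axis) for 82 of the 88 called genes, 1 point per gene, with standard errors as bars, a dashed line at equality and lines at 0; the 4 called genes below an average log2 CPM of 2, Speer4c and Gm32687 are left out. The 43 genes higher in the IgG RIP mostly lie above 0 on both axes, and the 39 lower genes are spread around 0 in the Arid5a RIP.

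Cxcl1 was at 6.39 and 134 CPM in medium and IL-17 libraries of the Arid5a RIP, Cxcl5 at 1.11 and 75.6, and Ccl2 at 38.8 and 351, with log2 folds of 4.36 ± 0.28, 6.05 ± 0.39 and 3.17 ± 0.18. Their responses were not shown to differ from those in the IgG RIP (edgeR interaction, adjusted p = 0.57, 0.563 and 0.151; differences of 0.47 ± 0.39, 0.81 ± 0.67 and 0.70 ± 0.25). Ccl7 was at 33.2 and 239.9 CPM and Vegfa at 106 and 465, and both responses were larger in the Arid5a RIP, by 1.53 ± 0.26 (interaction adjusted p = 0.0148) and 1.23 ± 0.25 (adjusted p = 0.0149) on the log2 scale. Under the other 3 scalings the Ccl7 difference had adjusted p of 0.0605 to 0.0779 and the Vegfa difference 0.104 to 0.139.

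In all, 174 genes had a called difference in response between the precipitates (0.976%), among them 6 of the 46 higher and 16 of the 42 lower genes. Both sets were picked by the IgG fold that also enters this difference, so a share above that over all genes is partly built in. Among the lower, Tacc3 (107 and 106 CPM in the Arid5a RIP) differed by 1.04 ± 0.26 and Birc5 (138 and 183 CPM) by 1.15 ± 0.24 (interaction adjusted p = 0.0415 and 0.0184). The median difference over all well-expressed genes was itself 0.34 with TMM factors, and with upper-quartile factors, library totals or TMM factors from well-expressed genes edgeR called 0 differences, with 2446, 2527 and 2592 genes at an unadjusted p below 0.05, while DESeq2 called 405 and limma voom 1653. Leaving out Arid5a RIP medium replicates 1 to 4 gave 141, 20, 4 and 92 called differences, and leaving out its IL-17 replicates 1 to 4 gave 0 (2239 at an unadjusted edgeR p below 0.05), 5, 72 and 715. The calls of a different response in the 2 precipitates depended on the scaling and on single libraries.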

How the data were processed

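RNA was precipitated with IgG or with an Arid5a antibody from ST2 cells in medium or with IL-17 and sequenced in 15 libraries, of which the 7 IgG libraries are compared here. For 25239 genes, the authors deposited a table of expected counts and, separately, one of FPKM. Per the submitters' processing notes, STAR 2.7.9, RSEM 1.3.1, DESeq2 1.36.0, R 4.3.0 and mm10 were used; what each tool did, the gene annotation used and any strand option are not given in the sources used here.

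Expected counts (2.66% to 10.3% of a library's values were not whole) were rounded to whole numbers. In edgeR 4.0.16 (R 4.3.3), filterByExpr with the groups kept 17835 genes, TMM gave the scaling, and a robust quasi-likelihood fit estimated 4 group means from all 15 libraries, with a common biological coefficient of variation of 0.341. A gene is called higher or lower where p, adjusted by Benjamini-Hochberg over all genes tested, is below 0.05, and single-gene p-values are from this test unless another tool is named. Totals of 939139 to 4580018 counts limit what can be detected in genes with few counts. Symbols matched the RefSeq gene table of GRCm38.p6, the build named mm10, for 25041 genes (99.2%).

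Named genes were the 15 higher and 10 lower called genes with the largest log2 fold, at an average log2 CPM of at least 2, with groups that do not overlap and a symbol that is not a predicted one; up to 4 called members of each of 29 gene lists by smallest p; and a set of IL-17 pathway and control genes whatever their result. The comparison, its members, the lists and the named genes were chosen with earlier results of these data known. No list was given a test; lists are described by counts and medians.

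Other settings tried were scaling by upper quartile, by totals alone and by TMM on well-expressed genes; DESeq2 1.42.0, limma 3.58.1 voom with quality weights, no filter, a stricter filter (10 counts in every library of a group), the 7 IgG libraries alone, a block for replicate number, limma on FPKM as log2 with 1 or 0.1 added, each library's receptor-gene CPM (olfactory and vomeronasal) as a covariate, medium 2 and IL-17 replicate 4 left out together, and each IgG library and, chosen after seeing the data, each Arid5a library left out in turn. The procedure was tested on simulated counts.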

Additional observations from a re-analysis of the deposited data

Results flagged for a closer look

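Dixon's test was applied to the 4 IgG medium libraries for 58 genes, and to each of the 3 groups of 4 libraries for 7 library measures, 79 groups of values in all, of which chance flags about 1 in 20; groups of 3 were not tested. Olfr1156 stood at 0.221 CPM in medium 1, a single count, and at 0 in the other medium libraries. Gm32687 stood at 10.5 CPM in medium 3, against 4.49 to 4.80 in the others. Medium 2 had 15326 genes with a count, against 20857 to 21528 in the others. Arid5a RIP IL-17 replicate 4 had 4236 CPM on olfactory and vomeronasal receptor genes, against 1305 to 1615 in the other libraries of its group.

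The response to IL-17 differed between the Arid5a and the IgG RIP in 13 named genes (edgeR interaction, adjusted p below 0.05; log2 differences, Arid5a RIP minus IgG RIP). It was larger in the Arid5a RIP for Ccl7 (1.53), Vegfa (1.23) and Malat1 (0.86). For genes that fell in the IgG RIP the difference was 1.89 for Cenpm, 1.64 for Mfsd14a, 1.56 for Vti1b, 1.38 for Trip4, 1.15 for Birc5 and 1.04 for Tacc3, and 8.63 for Gm32687, a fitted value with 0 counts in all IgG IL-17 libraries. It was −4.52 for Vmn2r109, −2.94 for Pcdhga9 and −5.86 for Olfr1156. Genes named for a large fold in the IgG RIP are prone to such a difference, since that fold enters it. The median over well-expressed genes was 0.34, and 0 of these 13 differences passed under upper-quartile factors, library totals or TMM factors from well-expressed genes, or without Arid5a RIP IL-17 replicate 1 (edgeR; 2239 to 2592 genes at an unadjusted p below 0.05).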

How the results depend on the processing

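The main analysis gave 88 calls, 46 higher and 42 lower, and 174 differences in response between the Arid5a and the IgG RIP. DESeq2 gave 320 calls (115 higher, 205 lower) and 405 differences, limma voom 54 (28 and 26) and 1653, the 7 IgG libraries alone 16 (11 and 5), log2(FPKM + 1) 45 with 10 lower and 6 differences, log2(FPKM + 0.1) 40 with 8 lower and 2 differences. The receptor covariate left 18 lower and 0 differences, upper-quartile factors, library totals and TMM factors from well-expressed genes 0 differences each, and leaving out medium 2 and IL-17 replicate 4 together gave 309. Leaving out 1 IgG library gave 43 to 257 calls, 30 to 85 higher, 12 to 172 lower and 5 to 443 differences. Leaving out 1 of the 8 Arid5a libraries, chosen after seeing the data, gave 59 to 94 calls, 36 to 50 higher, 23 to 44 lower and 0 to 715 differences. The cause of these shifts was not tested, except that fewer libraries enter some of them. Replicate numbers were not taken to pair the samples: deviations from the group means correlated at −0.04, 0.05 and −0.05 between same-numbered IgG medium and IL-17 libraries over 5394 genes, and at −0.13 to 0.20 over the 21 same-numbered pairs of all 4 groups, 1 of them above 0.1. With the replicate number as a block there were 66 calls (37 and 29) and 85 differences. Of the named genes' values under the alternatives, 1320 kept direction and side of the threshold, 280 kept direction but no longer passed, and 14 turned direction, in 4 genes not called in any of these cases. They were Il17rc (main log2 fold −0.10; 0.071 with limma voom, 0.43 and 1.15 on FPKM with 1 and 0.1 added, 0.0030 with the receptor covariate, −0.59 to 0.39 with 1 library left out), Malat1 (−0.04; 0.0016 with library totals, 0.019 with either FPKM setting, 5.4e-05 with the covariate, −0.099 to 0.039 with 1 library left out), Actb (−0.09; 0.0063 with the covariate) and Cebpb (0.25; −0.041 without medium 2 and IL-17 replicate 4). Fewer counts in medium 2 and in thinly counted genes limit what could be detected; a gene that missed the threshold was not shown to be equal.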
